A study of Mus musculus with 10 samples.

Results

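The genes described here were a fixed set of 10 mouse genes, chosen by name: Reg1, Reg3b, Reg3g and Reg4 of the regenerating (REG) protein family, and Lyz1, Lyz2, Mmp7, Ang4, Itln1 and Pla2g2a, which encode products known from Paneth cells. Of these 10, 9 were in the deposited table of 16875 gene names, and Reg1 was not analysed here. RNA sequencing covered 10 macrodissected colon tumors from C57BL/6 mice given the carcinogen azoxymethane (AOM) and then repeated cycles of the colitis-inducing agent dextran sodium sulfate (DSS). The mice were young when the experiment began, and tumors were collected months later. The 5 control tumors carried the Wls flox/flox alleles without Cre. The 5 Villin-WlscKO tumors carried the same alleles with Villin-Cre ERT2, a tamoxifen-dependent recombinase driven by an epithelial promoter. These mice were injected with tamoxifen after tumors had formed, at the longer of the intervals before tumor collection that the paper used. Wls encodes the membrane protein that carries Wnt ligands to the cell surface, so the comparison asks which transcripts differ in tumors whose epithelium can no longer secrete Wnt proteins. Control tumors were described as free of tamoxifen unless otherwise indicated. The number of mice behind the tumors was not given, so that n counts tumors, and p-values measure the spread between these tumors.

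REG proteins are small secreted C-type lectins. Reg3b and Reg3g are antibacterial lectins of the gut epithelium that keep bacteria away from the surface, and interleukin-22 signalling through STAT3 and contact with microbes are known to induce them. Paneth cells sit at the base of small intestinal crypts, where they release lysozyme, alpha-defensins, angiogenin 4 and a secreted phospholipase, and their maturation is known to depend on Wnt signalling. The healthy mouse colon has few or no Paneth cells. Its closest counterparts are the deep crypt secretory cells, which are marked by Reg4, and goblet cells, which make mucus and also some of these proteins.

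Levels were given as FPKM, fragments per kilobase of transcript scaled to the mapped reads of the library, a unit scaled for transcript length. Wls lay between 61.3 and 79.9 FPKM in control tumors and between 2.03 and 11.8 in Villin-WlscKO tumors. The labels did not give the sex of the mice, and the methods state a preference for females. Xist, the RNA that coats an inactive X chromosome, was at most 0.420 FPKM in control and at least 439 FPKM in Villin-WlscKO tumors, whereas the Y-linked Eif2s3y was at least 30.4 and at most 0.138 FPKM. By these genes the 5 control tumors read as male, against that preference, and the 5 Villin-WlscKO tumors as female. Genotype, tamoxifen and sex therefore cannot be told apart in any difference given here. Villin-WlscKO tumors 2 and 3 stood apart from the other 8 by Krt5, a keratin of stratified squamous epithelium, at 469.6 and 669 FPKM, while the others had at most 0.315 FPKM, and their Wls levels were the highest of their group. Because the pieces were whole tumors, more cells of a type and more RNA per cell cannot be told apart.

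Among the 9 genes, 6 were higher in Villin-WlscKO tumors past the threshold, 0 were lower and 3 did not pass. The 6 were Reg3b, Reg3g, Ang4, Reg4, Lyz1 and Mmp7. The test was limma on log2(FPKM + 1) over 16757 genes, two-sided, with a Benjamini-Hochberg adjusted p threshold of 0.05, and 6.12% of all genes tested were higher and 4.75% lower. In the same 6 genes, every Villin-WlscKO tumor lay above every control tumor, as did 5.33% of all genes tested, while 4.76% of all genes lay below without overlap. The median log2 change of the 9 genes was 1.66, beside 0.0073 over all genes tested. The background depended on the scaling between tumors. It was 1026 genes higher and 796 lower as deposited, 1373 and 410 after rescaling each tumor to the same FPKM sum, and 893 and 1125 after quantile normalization. The 6 genes passed under both of these.

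**Figure D1:**
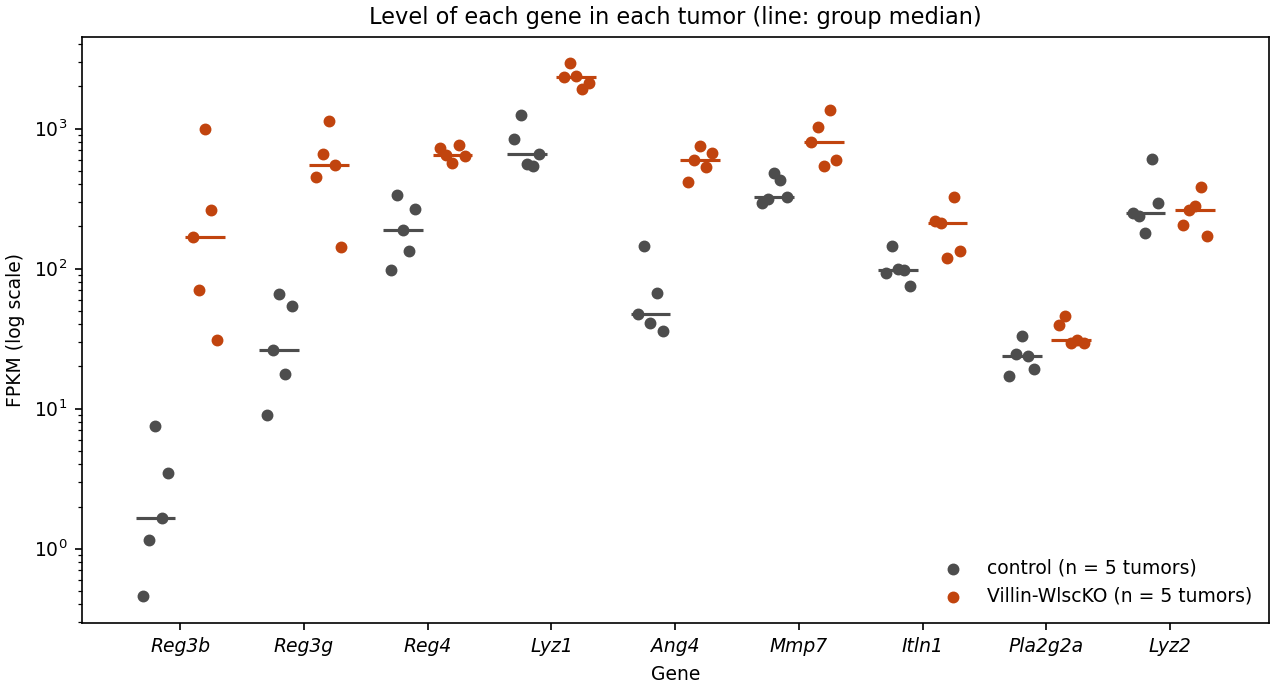
Level of each of the 9 genes in each of the 10 tumors, in FPKM on a log scale. Points are single tumors, gray for control and orange for Villin-WlscKO, and lines are group medians. The groups are separate for Reg3b, Reg3g, Reg4, Lyz1, Ang4 and Mmp7 and overlap for Itln1, Pla2g2a and Lyz2.

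The antibacterial lectins Reg3b and Reg3g lie close together on chromosome 6 of GRCm38, at chr6:78370657-78373466 on the plus strand and at chr6:78466269-78468872 on the minus strand in the GENCODE annotation. They were the genes of the set with the largest log2 changes. Sequences from before their RefSeq start sites are shown because they are paralogs that differed in how far they rose. The stretches run from 178 to 25 bases before the RefSeq start site of each gene (GRCm38.p6), 5′ to 3′ on the strand of the gene, and overlap no exon of the GENCODE annotation. Their positions in that annotation differ. The Reg3g stretch lies upstream of the gene, whereas the Reg3b stretch lies inside the gene span given above, in an intron of a transcript that starts further upstream. Capitals mark a match to the STAT motif TTCNNNGAA in Reg3b, at chr6:78370707-78370860 on the plus strand, and to the TCF/LEF motif CTTTGAT in Reg3g, at chr6:78468899-78469052 on the minus strand.
Reg3b: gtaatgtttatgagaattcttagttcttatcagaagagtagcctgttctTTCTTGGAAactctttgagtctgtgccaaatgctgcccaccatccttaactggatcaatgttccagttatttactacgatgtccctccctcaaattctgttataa
Reg3g: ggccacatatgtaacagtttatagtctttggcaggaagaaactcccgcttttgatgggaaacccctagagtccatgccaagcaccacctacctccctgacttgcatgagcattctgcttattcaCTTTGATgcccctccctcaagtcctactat

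The 2 stretches were identical at 95 of 152 aligned bases (62.5%). Over the windows of 250 bases before the start site, 8 of the 9 genes had at least 1 entry in the RefSeq table and 9 windows in all. The STAT motif, which reads the same on both strands, was in the windows of Reg3b and Ang4 and in 7.02% of all 32851 windows. The TCF/LEF motif, searched on both strands as CTTTGAT and ATCAAAG, was in the windows of Reg3g and Mmp7 and in 3.21% of all windows. A match of letters describes the sequence only.

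Reg3b had the largest difference of the set. Its level was 0.458, 1.14, 7.57, 1.65 and 3.45 FPKM in control tumors 1 to 5, and 167, 70.1, 1001, 261 and 31.1 FPKM in Villin-WlscKO tumors 1 to 5. The means were 2.86 ± 2.86 and 306 ± 399 FPKM (SD, n = 5 each), 107-fold apart, and the log2 change was 5.65 ± 0.84 (SE, 95% interval 3.79 to 7.50, limma adjusted p = 0.00223). The Villin-WlscKO tumors differed widely among themselves, with tumor 3 at 32.1 times the level of tumor 5, yet the lowest of them was 4.11 times the highest control tumor. Tumor 3 weighed on the size of the difference, and without it the log2 change was 4.98 (limma adjusted p = 0.00244).

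Reg3g was present in every tumor. It measured 9.05, 26.3, 65.6, 17.7 and 54.3 FPKM in control tumors 1 to 5, and 448, 661, 1133, 548 and 143 FPKM in Villin-WlscKO tumors 1 to 5. Means were 34.6 ± 24.3 and 587 ± 361 FPKM (SD, n = 5 each), a 17.0-fold difference, with a log2 change of 4.09 ± 0.62 (SE, 95% interval 2.72 to 5.45, limma adjusted p = 0.00248). As for Reg3b, tumor 3 was the highest and tumor 5 the lowest of the Villin-WlscKO group, and control tumors 3 and 1 were the highest and lowest of theirs.

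The ratio of the 2 lectins shifted between the groups. Reg3g exceeded Reg3b in all 10 tumors, by 8.66 to 22.9 times in control tumors (median 15.7) and by 1.13 to 9.43 times in Villin-WlscKO tumors (median 2.69). The mean log2 ratio was 2.24 lower in Villin-WlscKO tumors (-2.24, exact two-sided permutation test over 252 arrangements, p = 0.0159). Only Villin-WlscKO tumor 2, at 9.43, reached into the control range. The ratios were formed without a pseudocount, and Reg3b was only 0.458 to 7.57 FPKM in control tumors. The control ratios therefore rest on low values and are uncertain. Control tumors 1 and 2, with the lowest Reg3b, had the highest ratios. This ratio was 1 of 3 ratios of related genes computed, all picked after their values were seen, and its Benjamini-Hochberg adjusted p over the 3 was 0.0159, where 0.00794 is the smallest unadjusted p that 5 against 5 tumors allow. The reading frames of the pair were identical at 76.4% of 525 aligned bases, with no identical run longer than 35 bases.

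Reg4 encodes a REG lectin made by deep crypt secretory cells of the colon and is at chr3:98222156-98236748 on the plus strand. In control tumors 1 to 5 it was at 98.2, 336, 189, 133 and 267 FPKM, and in Villin-WlscKO tumors 1 to 5 at 727, 649, 564, 761 and 640.1 FPKM. The control tumors spread over 3.42 times and the Villin-WlscKO tumors over only 1.35 times from lowest to highest. Means of 205 ± 97.4 and 668 ± 77.6 FPKM (SD, n = 5 each) gave a log2 change of 1.83 ± 0.29 (SE, 95% interval 1.18 to 2.48, limma adjusted p = 0.00341). The tumor order differed from that of the Reg3 lectins, since tumor 3, the highest for both, was the lowest of the Villin-WlscKO tumors for Reg4. The other REG genes looked for, Reg2, Reg3a and Reg3d, were not analysed here.

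**Figure D2:**
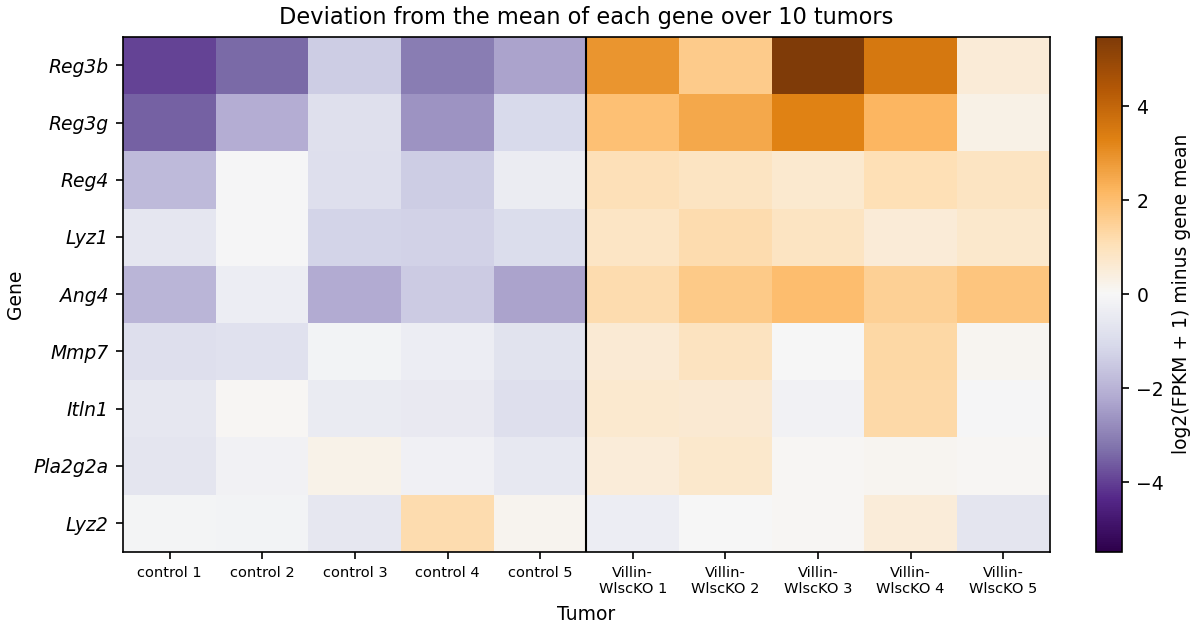
Level of each of the 9 genes in each tumor as the deviation of log2(FPKM + 1) from the mean of that gene over the 10 tumors, orange above and purple below that mean. Villin-WlscKO tumor 3 is the highest of all tumors for Reg3b and Reg3g, with 1001 and 1133 FPKM, while for Mmp7, Itln1 and Reg4 it has the lowest level of its group.

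The lysozyme genes, neighbours on chromosome 10, gave different results. Both encode enzymes that cleave bacterial peptidoglycan. Lyz1, the form known from Paneth cells, is at chr10:117287797-117292868, and Lyz2, the form of macrophages and other myeloid cells, is at chr10:117277331-117282321, both on the minus strand. Lyz1 measured 840.4, 1243, 561, 544 and 663 FPKM in control tumors 1 to 5 and 2354, 2920.2, 2388, 1909.7 and 2101 FPKM in Villin-WlscKO tumors 1 to 5. It was 3.03-fold higher by the means, 770.4 ± 289 against 2334.5 ± 381 FPKM (SD, n = 5 each), with a log2 change of 1.66 ± 0.22 (SE, 95% interval 1.16 to 2.15, limma adjusted p = 0.00121). Lyz1 had the highest FPKM of the 9 genes in 9 of the 10 tumors, the exception being control tumor 4, where Lyz2 was higher.

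Lyz2 measured 249, 238, 179, 602 and 294 FPKM in control tumors 1 to 5, and 205, 264, 279.9, 380.2 and 169.6 FPKM in Villin-WlscKO tumors 1 to 5. The groups overlapped, and 0 of 5 Villin-WlscKO tumors lay above every control tumor. Its log2 change was -0.19 ± 0.31 (SE, 95% interval -0.88 to 0.51, limma adjusted p = 0.766), an interval that leaves room for changes in either direction. Control tumor 4 set the sign, and without it the value was 0.08 (limma adjusted p = 0.877).

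Within a tumor, the ratio of Lyz1 to Lyz2 ranged from 0.904 to 5.22 in control tumors (median 3.14) and from 5.02 to 12.4 in Villin-WlscKO tumors (median 11.1). The mean log2 ratio was 1.84 higher in Villin-WlscKO tumors (exact two-sided permutation test, p = 0.0159, adjusted over the 3 ratios 0.0159). Only Villin-WlscKO tumor 4 reached into the control range. Without Villin-WlscKO tumors 2 and 3, which carried squamous keratin, the log2 difference was 1.80 and the exact permutation p was 0.0536. With Lyz1 already separated and no difference called in Lyz2, the ratio mostly restates the difference in Lyz1 and is no separate result. This pair, too, was picked after its values were seen. The reading frames of the 2 genes were identical at 95.1% of 447 aligned bases, with an identical run of 118 bases, so that fragments may have been divided between them, and the level of each is uncertain to that extent.

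**Figure D3:**
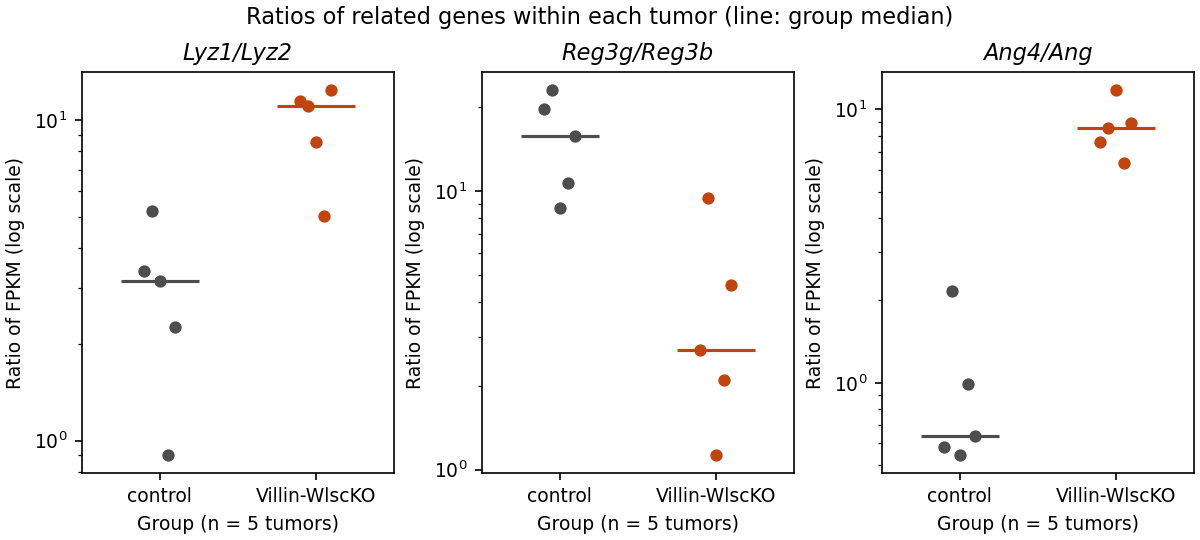
Ratio of FPKM of related genes within each tumor on log scales, one panel each for Lyz1 to Lyz2, Reg3g to Reg3b and Ang4 to Ang. Points are tumors and lines are group medians, which are 3.14 and 11.1, 15.7 and 2.69, and 0.641 and 8.56 for control and Villin-WlscKO.

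Ang4 encodes angiogenin 4, a secreted ribonuclease with microbicidal activity found in Paneth and goblet cells, and had the smallest limma adjusted p of the set. It is at chr14:51763878-51773590 on the minus strand. Because the groups were far apart and the window held the STAT motif, the 250 bases before its RefSeq start site, at chr14:51773591-51773840 on GRCm38.p6, are given 5′ to 3′ on the strand of the gene with that motif in capitals.
Ang4: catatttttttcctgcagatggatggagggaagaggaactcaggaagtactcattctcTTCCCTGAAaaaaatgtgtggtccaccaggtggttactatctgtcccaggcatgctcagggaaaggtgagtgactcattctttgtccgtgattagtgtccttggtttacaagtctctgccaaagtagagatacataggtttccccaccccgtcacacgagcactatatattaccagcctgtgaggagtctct

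Control tumors 1 to 5 held 47.2, 144.8, 40.9, 67.3 and 36.0 FPKM of Ang4, and Villin-WlscKO tumors 1 to 5 held 417, 593, 749, 529 and 664 FPKM. Control tumor 2 was the highest of its group, and the lowest Villin-WlscKO tumor was 2.88 times as high. The means were 67.2 ± 45.0 and 590.4 ± 127 FPKM (SD, n = 5 each), 8.78-fold apart, with a log2 change of 3.29 ± 0.34 (SE, 95% interval 2.53 to 4.04, limma adjusted p = 0.000234). The related gene Ang, whose values in the table were the same as those of Rnase4, gave a ratio of Ang4 to Ang of 0.546 to 2.17 in control tumors (median 0.641) and 6.36 to 11.7 in Villin-WlscKO tumors (median 8.56). These ratios did not overlap, and the mean log2 ratio was 3.32 higher (exact two-sided permutation test, p = 0.00794, adjusted over the 3 ratios 0.0159). Ang itself lay between 56.2 and 81.1 FPKM in control and between 55.1 and 83.1 FPKM in Villin-WlscKO tumors (log2 change -0.0055). With Ang this even and Ang4 already separated, the ratio restates the difference in Ang4 and is no separate result. It was also picked after its values were seen. The reading frames of Ang4 and Ang were identical at 85.5% of 435 aligned bases.

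Mmp7 encodes matrilysin, the metalloproteinase that activates alpha-defensins in mouse Paneth cells, and is also known as a gene of intestinal tumor epithelium and a Wnt target. It is at chr9:7692090-7699585 on the plus strand. Its levels were 292, 317, 484, 427 and 326 FPKM in control tumors 1 to 5, and 808, 1024, 541, 1346 and 594 FPKM in Villin-WlscKO tumors 1 to 5. The groups were separated narrowly, with the lowest Villin-WlscKO tumor 1.12 times the highest control tumor. Means of 369 ± 82.3 and 863 ± 331 FPKM (SD, n = 5 each) gave a 2.34-fold difference and a log2 change of 1.17 ± 0.25 (SE, 95% interval 0.61 to 1.72, limma adjusted p = 0.0153). The annotation places AV064505 antisense to Mmp7. Whether strand was used in quantification was not stated, so reads of the 2 cannot be told apart.

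Itln1 encodes intelectin 1, a lectin that binds microbial sugars and is made by goblet and Paneth cells, at chr1:171518122-171535294 on the minus strand. It was at 92.6, 145.3, 99.0, 97.9 and 75.0 FPKM in control tumors 1 to 5, and at 219.6, 211, 119, 326 and 133 FPKM in Villin-WlscKO tumors 1 to 5. Of the Villin-WlscKO tumors, 3 of 5 lay above every control tumor and tumors 3 and 5 did not. The log2 change was 0.91 ± 0.27 (SE, 95% interval 0.32 to 1.51), short of the threshold (limma adjusted p = 0.0561). Over 21 alternative settings the adjusted p ran from 0.0340 to 0.122 and was under the threshold in 5, among them leaving out Villin-WlscKO tumor 3 (0.0340), Villin-WlscKO tumor 5 (0.0479) or control tumor 2 (0.0486).

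Pla2g2a encodes a secreted phospholipase that attacks bacterial membranes, is made by Paneth cells in many mouse strains and is known to be disrupted in the C57BL/6 strain. The annotation lists it as a polymorphic pseudogene at chr4:138831857-138835186 on the plus strand, overlapping Pla2g5 on the other strand. It had the lowest Villin-WlscKO mean of the 9 genes. Its levels were 17.2, 24.6, 32.9, 23.7 and 19.1 FPKM in control tumors 1 to 5, and 39.5, 45.9, 29.5, 30.8 and 29.6 FPKM in Villin-WlscKO tumors 1 to 5. Villin-WlscKO tumors 1 and 2 lay above every control tumor and the other 3 fell below control tumor 3. The log2 change was 0.57 ± 0.18 (SE, 95% interval 0.17 to 0.97) and did not pass (limma adjusted p = 0.0740), except without control tumor 3 (0.70, adjusted p = 0.0239).

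**Figure D4:**
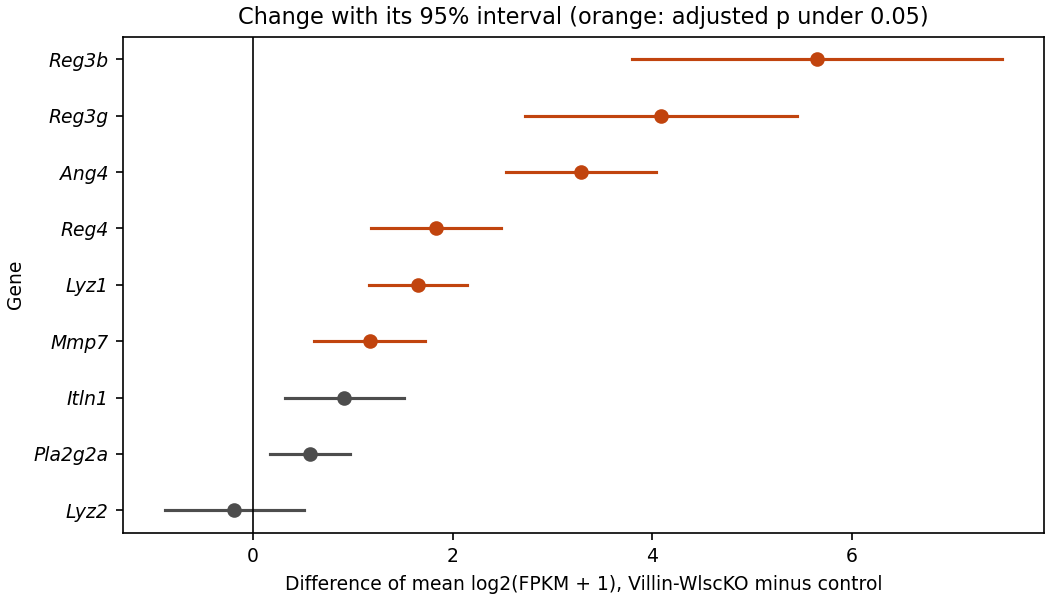
Difference between the group means of log2(FPKM + 1), with control subtracted from Villin-WlscKO, for each of the 9 genes, with its 95% interval from limma. Orange marks the 6 genes past the adjusted p threshold of 0.05, from Mmp7 at 1.17 to Reg3b at 5.65, and gray marks the 3 that did not pass.

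The tumor with the highest level was not the same for all genes. Within the Villin-WlscKO group, 4 genes were highest in tumor 4 (Reg4, Lyz2, Mmp7 and Itln1), 3 in tumor 3 (Reg3b, Reg3g and Ang4) and 2 in tumor 2 (Lyz1 and Pla2g2a). Reg4, Mmp7, Itln1 and Pla2g2a were lowest in tumor 3. The 6 genes that passed also did so when tumors 2 and 3 were both left out, with log2 changes without them of 5.15 for Reg3b, 3.53 for Reg3g and 1.25 for Mmp7.

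Other products of Paneth cell granules were looked for by a list of 22 alpha-defensin, angiogenin and related genes, of which 11 were in the table. Of these 11, 1 was higher and 10 did not pass, where 6.12% of all genes tested were higher, with a median log2 change of 0.48. The gene that passed, Clps, encodes pancreatic colipase and had a log2 change of 1.17 ± 0.30 (SE, limma adjusted p = 0.0310). The log2 change was positive in 7 of the 11. It was negative, and did not pass, for Mptx1 (-1.84), Defa22 (-0.17), Defa21 (-0.09) and Ang (-0.0055). Defa24, an alpha-defensin that was named after its values were seen, was abundant in both groups, with means of 695 ± 248 and 1475 ± 775 FPKM (SD, n = 5 each). Its log2 change of 1.02 ± 0.37 (SE) did not pass (limma adjusted p = 0.109), and its values were shared with the name Defa-ps1. The alpha-defensins are a family of near-identical copies, so that reads may be divided among them.

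Regulators of the secretory and Paneth lineages rose in part. Of 12 genes, 5 were higher, 0 were lower and 7 did not pass, with a median log2 change of 0.58, beside 6.12% higher among all genes tested. The 7 were Atoh1 (log2 change 1.29), Wnt3 (0.55), Ephb2 (0.24), Fzd5 (0.23), Tcf7l2 (0.10), Ephb3 (0.10) and Sox9 (-0.11). Spdef, a transcription factor of goblet and Paneth cell maturation, had a log2 change of 1.71 ± 0.41 (SE, limma adjusted p = 0.0232). Gfi1, a repressor needed for secretory cell fate, rose by 1.05 ± 0.19 (adjusted p = 0.00673). Bhlha15, a factor of the secretory apparatus, rose by 0.98 ± 0.14 (adjusted p = 0.00211), and the stress-responsive Nupr1 rose by 1.17 ± 0.24 (adjusted p = 0.0124). The fifth was Xbp1 (log2 change 0.61, limma adjusted p = 0.00764). In each of these 5 genes the Villin-WlscKO tumors lay above every control tumor, as did 5.33% of all genes tested.

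Goblet cell genes had a median log2 change of 1.16, with 5 of 12 higher, 0 lower and 7 not passed. The 5 were Muc2, Retnlb, Spdef, Agr2 and Spink4, of which Spdef was also counted among the lineage genes above. The lists share genes, so their counts are not independent. Of all genes tested, 6.12% were higher, which also stands beside the deep crypt count below. The 7 were Tff3 (log2 change 1.22), Fcgbp (1.10), Zg16 (1.05), Creb3l1 (0.89), Foxa3 (0.02), Foxa1 (-0.06) and Clca1 (-0.24). Muc2, the main gel-forming mucin, went from 109 ± 53.0 to 441 ± 124 FPKM (SD, n = 5 each, log2 change 2.098, limma adjusted p = 0.00470). Retnlb, a bactericidal protein of goblet cells, went from 6.73 ± 9.65 to 52.9 ± 21.2 FPKM (log2 change 3.50, adjusted p = 0.0110). Of the 7 tested genes of deep crypt secretory cells other than Reg4, 2 were higher and 5 did not pass, with a median of 0.34. The 2 were Spink4, which rose from a mean of 6063 to 21078 FPKM (log2 change 2.04, adjusted p = 0.0123), and Agr2, an endoplasmic reticulum protein needed for mucin production (log2 change 1.94, adjusted p = 0.0142), and both also belong to the goblet cell list. The 5 that did not pass were Tff3, which is also on the goblet cell list, Kit (log2 change 0.34), Dll1 (0.04), Dll4 (0.04) and Cd24a (-0.16).

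Genes known to be inducible by interleukin-22 were compared with the parts of its pathway. Of 11 inducible defence genes other than the REG lectins, 4 were higher, 0 were lower and 7 did not pass, with a median log2 change of 1.39. Beside this count, 6.12% of all genes tested were higher. The 7 were Pigr (log2 change 1.46), Saa3 (1.39), Lcn2 (1.35), S100a8 (1.30), S100a9 (0.95), Fut2 (0.58) and Saa1 (0.47). Nos2, the inducible nitric oxide synthase, went from 3.14 ± 2.67 to 51.2 ± 13.5 FPKM (SD, n = 5 each, log2 change 3.80, limma adjusted p = 6.67e-05). The hydrogen peroxide-producing oxidase Duox2 and its maturation factor Duoxa2 rose by 1.49 and 1.56 (adjusted p = 0.00237 and 0.00131). The fourth was Retnlb, which is also on the goblet cell list. Of 19 cytokine, receptor and STAT3 pathway genes, 14 were tested. Among these, 1 was higher, the interleukin-17 receptor subunit Il17rc (log2 change 0.81, adjusted p = 0.0220). The other 13 did not pass, and the median was 0.15. The log2 change was positive in 11 of the 14. The largest in size was negative, that of Il23a at -1.12 ± 0.32 (SE), and it did not pass (limma adjusted p = 0.0516). Il22, the gene of interleukin-22 itself, was not among the 14, so its level was not compared. Of 9 other secreted phospholipases tested, 1 was higher, Pla2g2e (log2 change 1.29, adjusted p = 0.00972), and 8 did not pass. The counts of 1 of 14 and 1 of 9 stand beside the 6.12% of all genes tested that were higher, and a single gene in lists of this size is near that share. The other lysozyme genes listed were not analysed here.

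**Figure D5:**
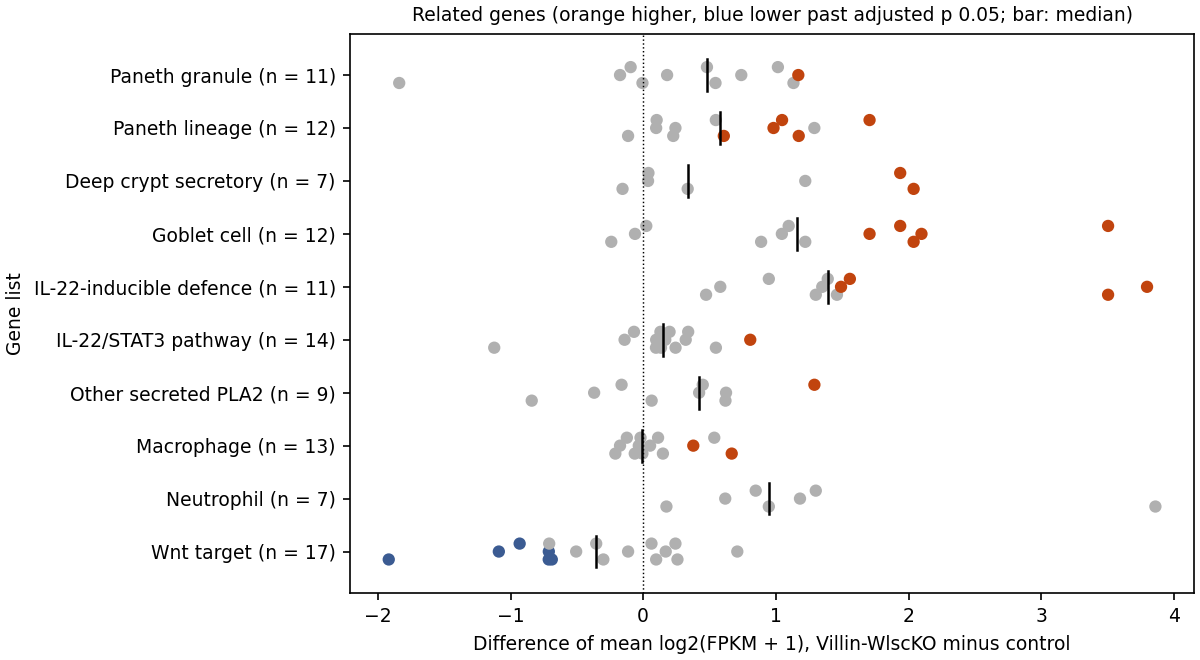
Difference between the group means of log2(FPKM + 1), with control subtracted from Villin-WlscKO, for each tested gene of 10 lists. Orange points were higher and blue points lower past the adjusted p threshold of 0.05, gray points did not pass, and bars are list medians, from -0.35 for Wnt targets to 1.39 for interleukin-22-inducible defence genes.

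Markers of cells that could add to these transcripts were summed as FPKM in each tumor. The 13 macrophage genes, a source of Lyz2, summed to between 392 and 577 in control and between 395 and 695 in Villin-WlscKO tumors, with 2 higher (Cd14 and Ctss), 11 not passed and a median log2 change of -0.01. Among all genes tested, 6.12% were higher. Of 11 neutrophil genes, 7 were in the table, 0 passed, the median was 0.95 and the sums were 233 to 787 and 609.5 to 3519. The highest of these sums came with Ltf, lactoferrin, which reached 2278 FPKM in Villin-WlscKO tumor 2 and 2226 FPKM in tumor 3, against at most 24.9 FPKM elsewhere. S100a9, a calcium-binding protein of neutrophils, had means of 187 ± 108 and 334 ± 137 FPKM (SD, n = 5 each, limma adjusted p = 0.161).

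Small intestinal enterocyte genes, 4 of 9 in the table with Apob and Rbp2 the most abundant, summed to 9.40 to 21.0 in control and 7.61 to 58.5 in Villin-WlscKO tumors, and 0 passed. Of 16 pancreatic acinar genes, 6 were tested and only Clps passed, and the sums were 424 to 663 and 292 to 487. The Pnlip entry, which shared its values with Pnliprp2, and Cela1 were the most abundant of them. In the squamous list, 7 of 10 genes were tested and 1 passed (Serpinb5), with sums of 80.2 to 249.7 and 88.9 to 1379.7, and Krt5, Trp63 and Krt6b were under 0.1 FPKM in at least 1 tumor. Krt14, with Krt5 the most abundant of the list, had means of 47.2 ± 38.4 and 113 ± 128 FPKM (SD, n = 5 each). The 10 epithelial genes, led by Krt19 and Krt8, had 1 that passed (Krt20), a median of 0.27 and sums of 6146 to 8689 and 7546.5 to 9683. The Krt19 entry, the most abundant of them, shared its values with Krt13 and Krt17, keratins of stratified epithelia, so these sums may hold reads of those genes. The part of these cell types in the differences of the 9 genes was not tested. Of 17 Wnt target genes, 6 were lower, 0 were higher and 11 did not pass, with a median log2 change of -0.35. Those lower were Axin2, Notum, Apcdd1, Znrf3, Sp5 and Tcf7. The log2 change was positive in 6 of the 17, the largest being Lgr5 (0.71, limma adjusted p = 0.239). Lef1 (-0.51, limma adjusted p = 0.309) did not pass. Beside the counts of these lists, 6.12% of all genes tested were higher and 4.75% lower.

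For each member, the genes with the nearest profile over the 10 tumors were found. The measure was the root mean square difference of log2(FPKM + 1) after subtracting the mean of each gene over the 10 tumors. For Reg3b they were Reg3g (1.10) and Nos2 (1.44), and for Reg3g they were Sprr2h (0.70) and Nos2 (0.81). For Reg4 the nearest were Muc3a (0.27) and Ccl6 (0.31), and for Lyz1 they were AW112010 (0.28) and Ube2l6 (0.29). Ang4 was followed by H2-Q5 (0.45) and Psmb9 (0.51), and Mmp7 by Ckb (0.27) and 1700066B19Rik (0.30). For Itln1 they were Gad1 (0.28) and Adgrl2 (0.30), for Pla2g2a Clic4 (0.16) and Gm8388 (0.17), and for Lyz2 Rpp40 (0.22) and Lpl (0.24). Genes with a small range over the tumors have small differences by this measure, so the values describe each gene and its neighbours and are not to be ranked between members. The measure includes the difference between the groups, so genes with a group difference of similar size come out near by construction. Variation within the groups was not compared.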

How the data were processed

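Stranded mRNA libraries of 10 tumors were sequenced. Per the submitters' processing notes, reads were checked with FastQC, mapped to GRCm38.p5 with TopHat2 2.1.1 and quantified with Cufflinks 2.2.1 and Cuffdiff. The values deposited by the authors are FPKM per gene name and tumor. The annotation and the use of strand are not given in the sources used here, and with no read counts the depth is unknown, so precision rests on the spread between tumors. Median FPKM per tumor was 11.3 to 12.2, and Pearson correlations of log2(FPKM + 1) between tumors were 0.918 to 0.976.

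Genes averaging at least 0.5 FPKM were tested with limma 3.58.1 (R 4.3.3) on log2(FPKM + 1), with an eBayes trend, no covariate and Benjamini-Hochberg adjustment over all genes tested. A fold change on this scale is understated for low genes. The code was tested on simulated data. Ratios were tested by exact permutation in Python 3.11.15. Reading frames and positions came from GENCODE M21, promoter windows from RefSeq. Named were all members, the genes past the threshold in each related list (at most the 4 with the largest change), the 2 most abundant genes of each cell type list and the 2 nearest profiles. Members and lists were chosen with earlier results of these data known. Serpinb5, Krt20, Trp63, Krt6b, Ang and Defa24 were named after their values were seen, as were the other list genes that these rules do not cover. Alternatives covered the pseudocount, filter, scaling, variance model, replicate block and left-out tumors.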

Additional observations from a re-analysis of the deposited data

How the results depend on the processing

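Each of the 6 genes past the threshold (Reg3b, Reg3g, Reg4, Lyz1, Ang4 and Mmp7) kept its direction and its call under all 21 alternatives. The median log2 change of the 9 genes ran from 1.38 to 1.85 over these alternatives, and leaving out single tumors gave 6 to 7 of the 9 as higher. The background counts moved more. The number of genes lower was 410 with the same FPKM sum per tumor and 507 to 808 when single tumors were left out, the lowest without control tumor 2. The number of genes higher ran from 695 to 1178 in the latter. Without Villin-WlscKO tumors 2 and 3, 655 genes were higher and 446 lower. Fewer samples enter these fits, and the cause of the other shifts was not tested. The log2 change of Lyz2 ran from -0.35 to 0.082 when single tumors were left out and turned positive only without control tumor 4. Correlations of same-numbered deviations from the group means were 0.0638, -0.0868, 0.0626, 0.10 and 0.16. Differently numbered tumors were not compared in this way, so these values cannot show whether the replicate numbers paired the tumors. A block for the replicate number gave 991 genes higher and 636 lower, and 7 of the 9 genes higher, with Itln1 added (limma adjusted p = 0.0461). For the ratios, leaving out tumors was chosen after seeing the data. The ratio of Lyz1 to Lyz2 was past 0.05 in 10 of these 11 alternatives and the other 2 ratios in all 11. These counts add no separate result for Lyz1 or Ang4, whose differences the ratios to Lyz2 and Ang mostly restate. With no read counts, no limit from depth could be set on levels near 0, such as that of Reg3b in control tumors. The same holds for the ratio of Reg3g to Reg3b in those tumors.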
